A study of Homo sapiens with 2 samples.

Results

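The 7 genes described here, CAV1, EZH2, NKX2-2, FCGRT, FEZF1, KDSR and STEAP2, are marker genes of Ewing sarcoma that were measured in SK-NEP-1 cells with and without the histone deacetylase inhibitor LBH589. They were chosen by gene symbol from the rows of changed mRNAs that accompany the study. The rows read here hold 1954 probes of 1741 named genes, out of 58981 probes used on each array. These rows are only part of the study's lists, so a gene without a named probe in them may have differed or not. The 7 genes have 9 probes, and all 9 stand among the 952 rows of mRNAs that were lower after LBH589, with 0 among the 1002 rows of mRNAs that were higher. The choice therefore used the contrast between the arrays, so the direction of every difference below was fixed by the choice and the differences are descriptions.

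The study tested LBH589 (panobinostat) as a treatment for Wilms tumor, a kidney cancer of young children. RNA came from a single established human cell line, SK-NEP-1, which the labels describe as a Wilms tumor line of the kidney. In the treated group the cells received 100 nM LBH589, and in the control group they received an equal volume of DMSO, the solvent, for 24 h. Each group is 1 sample on 1 array of long noncoding RNA and mRNA probes, labeled with the dye Cy3. There are therefore no replicates, and no test was possible. Each error, called the measurement error here, is the estimate of the image software for 1 spot. For bright spots it is a nearly constant share of the signal, so it is not a spread seen between repeated measurements. Culture, RNA preparation and labeling cannot be told apart from the treatment. In RNA from a whole culture, fewer cells of a kind and less RNA per cell cannot be told apart either.

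Ewing sarcoma is a tumor of bone and soft tissue in which a chromosome translocation joins EWSR1 to an ETS family gene, most often FLI1. The fusion protein, EWS-FLI1, binds DNA at GGAA motifs, switches on a set of genes at repeats of this motif and represses others. NKX2-2, CAV1, EZH2 and STEAP family genes are widely used as readouts of this program, and SK-NEP-1 has been reassigned in other work from Wilms tumor to the Ewing family. The fusion transcript itself was not measured here. Histone deacetylase inhibitors raise histone acetylation and change the transcription of many genes in either direction.

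Each probe is a run of 60 bases. The sequences of 5 probes show where on their transcripts the largest differences and the paired probes of CAV1 and EZH2 were read. For NKX2-2 and for the first CAV1 probe, only the last 24 and 25 bases are shown, beginning at the ATG start codon, which is in capitals. The remaining lines show the second CAV1 probe and both EZH2 probes whole.
NKX2-2: ATGtcgctgaccaacacaaagacg
CAV1, first probe: ATGtctgggggcaaatacgtagact
CAV1, second probe: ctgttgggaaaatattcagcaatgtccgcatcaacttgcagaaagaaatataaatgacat
EZH2, brighter probe: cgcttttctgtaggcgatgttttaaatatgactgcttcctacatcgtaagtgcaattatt
EZH2, dimmer probe: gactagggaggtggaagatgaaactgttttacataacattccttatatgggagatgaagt

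The NKX2-2 probe and the first CAV1 probe lie across the start codon of their transcripts. The first CAV1 probe is annotated to transcripts NM_001753 and NM_001172895, and the second to both of these and to NM_001172896 and NM_001172897. No 2 probes of the 7 genes share a run of more than 7 bases. Between 21 and 43 of the 60 bases of each probe were G or C.

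All 9 probes were well above background on the DMSO array, with processed signals (background subtracted, unscaled) from 281 to 77441. On the LBH589 array 8 of the 9 were still well above background, and the processed signal of the NKX2-2 probe was not. No probe was saturated on either array. The brightness of a spot depends on its probe as well as on its RNA, so the signals of different probes do not rank their RNAs.

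**Figure D1:**
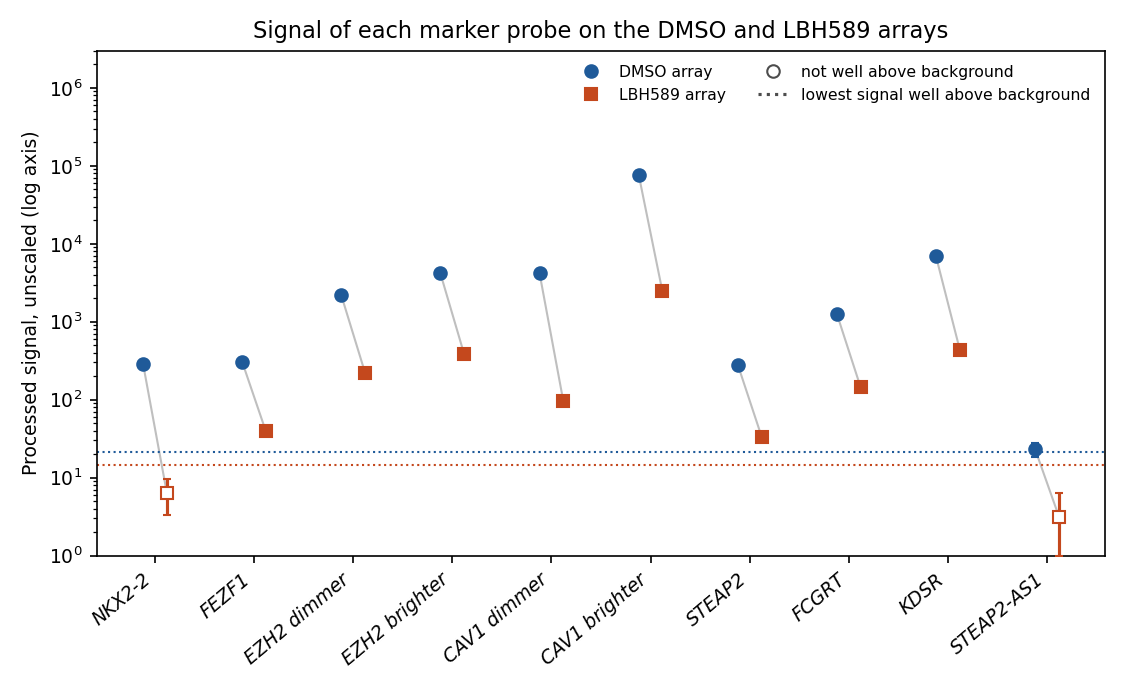
Processed signals of the marker probes and of STEAP2-AS1 (y axis, unscaled, log axis) on the DMSO array (circles) and the LBH589 array (squares), with the measurement error of each spot as bars. Each of the 9 marker probes was dimmer on the LBH589 array. Open symbols were not well above background, dotted lines mark the lowest such signal of each array (21.3 on DMSO and 14.5 on LBH589), and the lower bar of STEAP2-AS1 is cut at the axis.

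The LBH589 array was dimmer as a whole, its processed signals having a 75th percentile of 108, where those of the DMSO array had 188. Levels were therefore set against that percentile on the log2 scale, and a difference is the scaled level on LBH589 minus that on DMSO. The scaling raised each difference between measured signals by 0.80, and the median over the 34620 probes that exceeded background on both was -0.03, or -0.83 without it. All 9 marker probes were at least 2-fold lower, where 10.2% were among the 41579 probes that exceeded background on either array. Of all probes past 2-fold in either direction, 45.5% were lower, 90.0% were without scaling, and 55.8% were when the probes printed on 10 spots set the scale. At least 5-fold lower were 7 of the 9, where 1.65% of all probes were. Since the rows read were chosen for their change, nothing is read from these shares. The median difference of the 7 genes, each by its brightest probe on the DMSO array, was -2.65, beside -0.01 over the 41579 probes.

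FCGRT, 5.03-fold lower, lay just inside the 5-fold limit, while STEAP2 (4.81-fold) and FEZF1 (4.51-fold) lay just outside it. In the authors' deposited values, the smallest difference among the lower rows read was -1.99, so a gene with a smaller difference could not have been chosen.

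Among the transcription factors, NKX2-2 and FEZF1 were both lower after LBH589. NKX2-2 is a homeodomain factor of the developing ventral neural tube and pancreas, and in Ewing sarcoma it is a target of EWS-FLI1 used in diagnosis. Its gene lies at chr20:21491660-21494664 on the minus strand (hg19). The NKX2-2 probe had a processed signal of 290 ± 29.3 on the DMSO array and of 6.42 ± 3.13 on the LBH589 array. The treated signal was dimmer than any spot called well above background there, so NKX2-2 was at least 11.5-fold lower, a bound of -3.52 on the log2 scale. Taken at its own value, the difference was -4.70 ± 0.72. The NKX2-2 probe stood at the 80.4 percentile of all probes on the DMSO array. On the LBH589 array its own value lay at the 20.9 percentile, which is no exact rank, since it was not well above background there. Only NKX2-2 among the 7 genes was not well above background on an array.

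FEZF1 is a zinc finger repressor of the developing forebrain and olfactory system. It lies at chr7:121941448-121944565 on the minus strand (hg19). The FEZF1 probe gave a processed signal of 307 ± 31.0 with DMSO and 39.1 ± 5.23 with LBH589. The difference was -2.17 ± 0.24, the smallest among the 9 probes under this scaling, and the treated signal stayed well above background. From the list of NK2 and FEZ factors, which has 9 genes, FEZF2 was the only other gene with a named probe in the rows read. The FEZF2 probe had a processed signal of 4.25 ± 4.27 on DMSO, not well above background, and of 19.0 ± 3.71 on LBH589, a bound of 0.63 on the higher side that was at 0 without scaling.

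EZH2, the catalytic subunit of the Polycomb repressive complex PRC2, which methylates lysine residues of histone H3, was lower on both of its probes. The gene lies at chr7:148504464-148581441 on the minus strand (hg19). The brighter EZH2 probe, annotated to NM_004456, had a processed signal of 4173 ± 417 on DMSO and 383 ± 38.4 on LBH589, a difference of -2.65 ± 0.20 and 6.27-fold lower. The dimmer EZH2 probe, annotated to NM_152998, had 2193 ± 219 and 222 ± 22.4, a difference of -2.51 ± 0.21. The gap between the EZH2 differences, 0.14 ± 0.29, was within the measurement error of the spots.

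Of the 11 genes in the list of PRC2 subunits and accessory factors, PHF19 and RBBP4 also had a named probe in the rows read, and 8 had none. PHF19, an accessory factor that binds methylated histone H3, had a processed signal of 3576 on DMSO and 135 on LBH589, a difference of -3.93 ± 0.21. RBBP4, a histone-binding subunit, had 1307 and 153, a difference of -2.29 ± 0.21. Both were at least 2-fold lower, as was EZH2, where 10.2% of the 41579 probes above background on either array were. All come only from rows chosen for change, so nothing is read from this count. The core subunits SUZ12 and EED were not analysed here.

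CAV1 was lower on both of its probes, and by more than the other 5 of the 7 genes that were measured above background on both arrays. It encodes caveolin-1, the scaffold protein of caveolae, the small pits of the plasma membrane, and lies at chr7:116164839-116201239 on the plus strand (hg19). The first and dimmer CAV1 probe, which spans the start codon, had a processed signal of 4203 ± 420 on DMSO and 95.8 ± 10.1 on LBH589. The difference was -4.66 ± 0.21, which is 25.2-fold lower. At least 34 of the 41579 probes (0.0818%) had a larger fall, since those measured on 1 array only entered as bounds.

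The second and brighter CAV1 probe was among the brightest on the DMSO array, at the 99.7 percentile, with a processed signal of 77441 ± 7744. On the LBH589 array it had 2445 ± 245, which was still at the 96.3 percentile. Its difference was -4.19 ± 0.20, or 18.2-fold lower. The CAV1 probes thus differed by 0.47 ± 0.29 from each other in their change, on signals 18.4-fold apart on DMSO. With normexp, another background correction, the order turned, with -4.01 for the first and -4.19 for the second. They share no run of more than 5 bases.

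CAV2, the neighbor of CAV1 and the only other gene of the caveola list with a named probe in the rows read, was lower as well. Its protein, caveolin-2, forms complexes with caveolin-1. The CAV2 probe had a processed signal of 5911 ± 591 on DMSO and 168 ± 17.0 on LBH589, a difference of -4.34 ± 0.21. CAV2 ends at base 116148595 of chromosome 7 (hg19), with 16243 bases between that base and the first base of CAV1. The other 10 of the 12 genes in the caveola list were not analysed here.

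**Figure D2:**
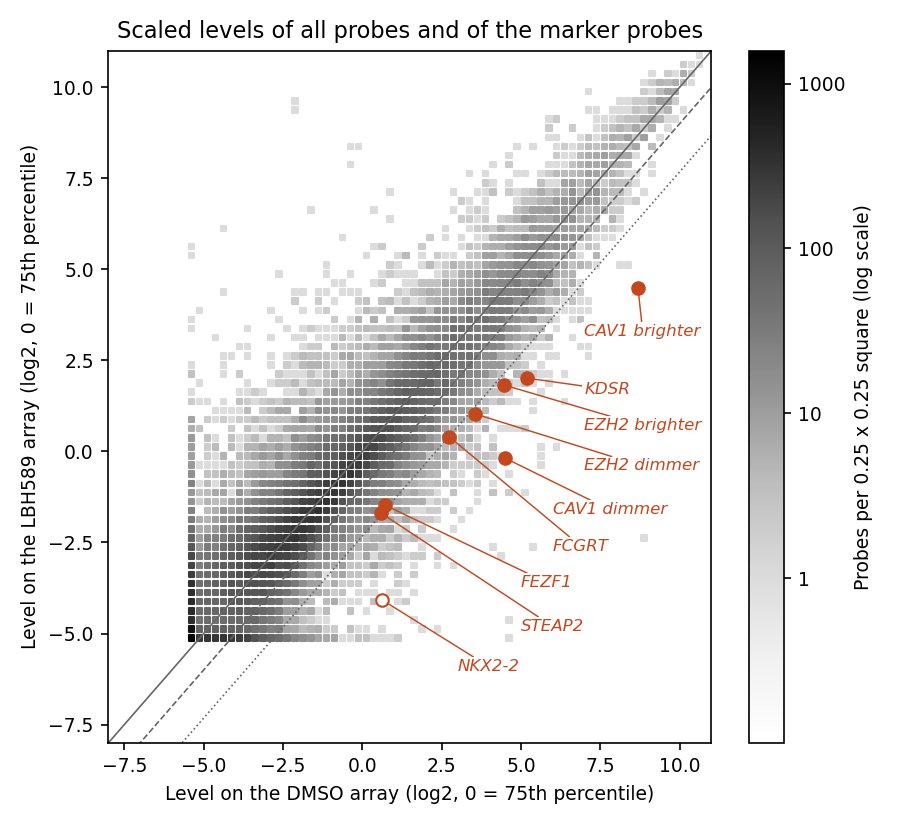
Scaled log2 level of all probes on the DMSO array (x axis) and the LBH589 array (y axis), each relative to the 75th percentile of its array, as gray squares shaded by the number of probes. The marker probes (red, open for NKX2-2, plotted at its own value) lie below the line of equality (solid) and below the 2-fold line (dashed), with STEAP2 and FEZF1 just above the 5-fold line (dotted) and the brighter CAV1 probe at 8.68 on DMSO and well below the 5-fold line.

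STEAP2 and FCGRT encode membrane proteins, and both were lower after LBH589. STEAP2 is a metalloreductase that reduces iron and copper, and a member of the same family as STEAP1, a surface marker of Ewing sarcoma. Its listed transcript, NM_001040666, lies at chr7:89843134-89866992 on the plus strand (hg19). The STEAP2 probe had a processed signal of 281 ± 28.5 on DMSO and 33.6 ± 4.82 on LBH589, a difference of -2.27 ± 0.25. No other gene of the STEAP family list, which has 5 genes, had a named probe in the rows read.

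An antisense long noncoding RNA, STEAP2-AS1, which the annotation of the array lists as intronic antisense to STEAP2, was the only noncoding probe in the rows read that was tied to any of the 7 genes. It lies at chr7:89838584-89840949 on the minus strand (hg19), outside the span of the STEAP2 transcript given above. STEAP2-AS1 had a processed signal of 23.0 ± 4.84 on DMSO, just above background, and of 3.16 ± 3.18 on LBH589, not well above background. At this brightness no fold can be given for STEAP2-AS1.

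FCGRT encodes the heavy chain of the neonatal Fc receptor, which binds IgG and albumin and protects them from breakdown. It lies at chr19:50015536-50029685 on the plus strand (hg19). The FCGRT probe had a processed signal of 1255 ± 126 on DMSO and 143 ± 14.7 on LBH589, a difference of -2.33 ± 0.21. B2M, the light chain that pairs with FCGRT, was not analysed here.

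KDSR, the enzyme of the second step in the de novo synthesis of ceramide and other sphingolipids, had a larger difference than STEAP2 and FCGRT. The gene lies at chr18:60994971-61034506 on the minus strand (hg19). The KDSR probe had a processed signal of 6873 ± 687 on DMSO and 437 ± 43.8 on LBH589, a difference of -3.18 ± 0.20, or 9.04-fold lower.

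The ceramide synthesis list has 22 symbols, of which SPTLC2 and CERS2 also had a named probe in the rows read. SPTLC2, a subunit of serine palmitoyltransferase, which catalyzes the step before KDSR, was higher, with a processed signal of 336 on DMSO and 735 on LBH589, a difference of 1.93 ± 0.20. CERS2, a ceramide synthase that makes very long chain ceramides, was lower, with 939 and 105, a difference of -2.36 ± 0.21. Members of this pathway thus differed in opposite directions between the arrays.

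The list of genes known as EWS-FLI1 activated or as Ewing sarcoma markers has 47 genes. Besides the 7 genes, 6 of the other 40 had named probes in the rows read, and all 7 of those probes were at least 2-fold lower, 6 of them at least 5-fold lower, with a median difference of -2.55, where 10.2% and 1.65% of all probes were lower by these folds and the median was -0.01. These probes, too, come only from rows chosen for change, so the count is a description. With normexp, HOXD10 was at -0.54, and 6 of the 7 probes were at least 2-fold lower and 2, those of PHF19 and MYC, at least 5-fold lower. Of the 41579 probes, 2258 and 250 were lower by these folds with normexp. MYC, a transcription factor that promotes growth, had a processed signal of 6867 on DMSO and 422 on LBH589, a difference of -3.22 ± 0.20. CCND1, cyclin D1, had 3993 and 457, a difference of -2.33 ± 0.20.

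HOXD13, a homeobox factor of the posterior body, had processed signals of 887 and 87.0, a difference of -2.55 ± 0.21. HOXD10, of the same HOXD cluster, had 77.8 on DMSO and 11.3 on LBH589, not well above background, a bound of -1.62. The probes of LOXHD1 gave bounds of -2.87 and -2.41, with DMSO signals of 185 and 134 and neither well above background after LBH589. PHF19, given above with PRC2, is also in this list. The remaining 34 genes, among them CD99, NR0B1, STEAP1, LIPI, XG and PRKCB, were not analysed here.

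Genes known as EWS-FLI1 repressed did not all differ in 1 direction. Of 14 genes in this list, 3 had a named probe in the rows read. IER3, an early response gene, was higher, with processed signals of 230 on DMSO and 480 on LBH589, a difference of 1.86 ± 0.21. ZYX, which encodes the focal adhesion protein zyxin, was lower, with 3885 and 258, a difference of -3.11 ± 0.20. TNC, tenascin C, had 25.7 on DMSO and 3.15 on LBH589, not well above background, and its bound of -0.02 gives no direction.

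**Figure D3:**
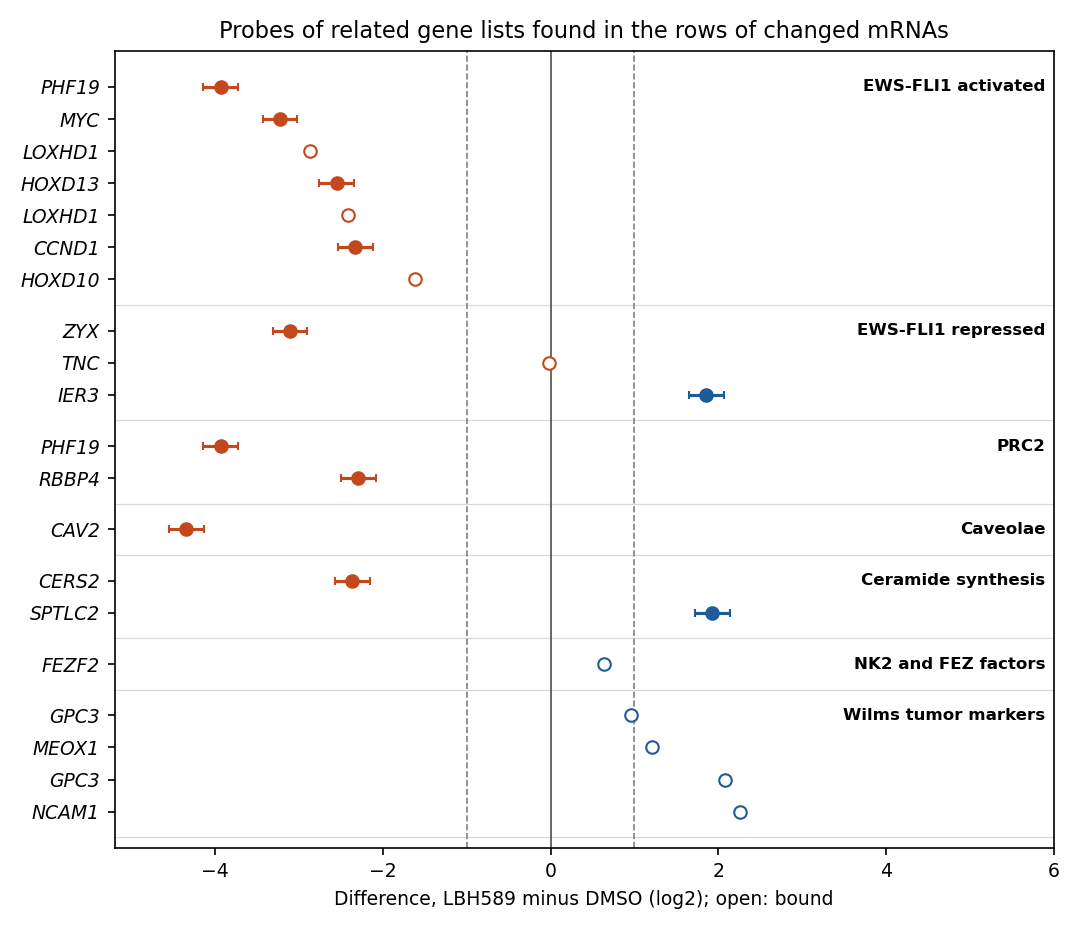
Difference of scaled log2 levels, LBH589 minus DMSO (x axis), for the probes of genes other than the 7 markers that belong to the related lists and have a row among the changed mRNAs. Bars are the measurement error, open circles are bounds, and dashed lines mark 2-fold, and the 7 probes of the EWS-FLI1 activated list all lie left of the lower 2-fold line.

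The marker genes of the tumor type on the label were looked up in the same rows. Of 15 markers of Wilms tumor and nephron progenitors, 3 had a named probe, 4 probes in all, and none of these was well above background on the DMSO array. GPC3, a cell surface proteoglycan, had processed signals of 14.7 and 6.44 on DMSO and of 51.6 and 23.7 on LBH589, bounds of 2.08 and 0.95. NCAM1, a neural cell adhesion molecule, had 20.1 and 58.7, a bound of 2.26. MEOX1, a mesoderm homeobox factor, had 11.6 and 28.3, a bound of 1.21.

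At least 2-fold higher were 3 of these 4 probes, where 12.3% of all probes were. All 4 stand in the rows of higher mRNAs and exceeded background only after LBH589, so their direction was fixed by the choice of rows and nothing is read from the count. Without scaling 2 of the 4 stayed past 2-fold higher, and with normexp 0 did, with values from 0.45 to 0.75. Over the 41579 probes, 1802 were past 2-fold higher without scaling and 2512 with normexp. WT1, CITED1, PAX2 and the other markers of this list, 12 in all, were not analysed here. Of the stromal markers, COL1A1 had a processed signal of 83.1 on DMSO and 341 on LBH589, a difference of 2.83 ± 0.22, and the other 3 had no named probe. None of the lists of leukocyte markers (3 genes), neuroblastoma markers (5 genes) and rhabdoid tumor or muscle markers (4 genes) had a named probe in the rows read. The part of other cell types in the differences of the 7 genes was not tested.

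For each of the 7 genes, by its brightest probe on the DMSO array, the named probe of another gene with the most similar pair of scaled levels was found among 1197 to 1199 candidates that exceeded background on both, with the distance on the log2 scale over the 2 arrays. KDSR lay 0.05 from MYC, and EZH2 lay 0.05 from OBSL1, which encodes a cytoskeletal adaptor. FEZF1 lay 0.03 from GOLPH3, a Golgi phosphoprotein, FCGRT lay 0.06 from MAP7D2, a microtubule-associated protein, and STEAP2 lay 0.07 from TMEM200C. These distances describe the spots and, since brightness depends on the probe, do not say that the RNAs were equally abundant.

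For CAV1 and NKX2-2 the distances were larger. The nearest probe to the brighter CAV1 probe was that of GRP, the gastrin-releasing peptide, at 0.77, with processed signals of 60427 on DMSO and 3931 on LBH589. The nearest to NKX2-2, taken at its own value, was that of C8orf4, at 1.36. No close neighbor of NKX2-2 was possible, because the candidates had to exceed background on both arrays and NKX2-2 did not on LBH589. With 2 arrays a likeness of this kind describes only a level and a difference.

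CAV1, EZH2, FEZF1 and STEAP2, 4 of the 7 genes, lie on chromosome 7. Among all 815 genes named in the lower rows read, 46 (5.64%) lie on this chromosome, and 52 of the 928 in the higher rows do. Since the 7 genes were picked by name as markers, nothing is read from their chromosomes. On the surface of the array, the spots within 10 rows and columns of each marker probe, 238 to 300 spots, had median differences from -0.20 to 0.34, against -4.66 to -2.17 for the marker probes themselves.

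The promoters of the 7 genes were searched for the GGAA core bound by ETS factors, on either strand (GGAA or TTCC), in the 250 bases before each start site of RefSeq (GRCh38.p14). All 7 genes were matched, with 13 start sites. A core was found in 11 of the 13 windows, with a median of 3 matches, beside 92.7% of 35116 windows of the same length, whose median was also 3. A pair of adjoining cores, GGAAGGAA or TTCCTTCC, which also counts as 2 matches of the core, was found in 2 of the 13 windows, both of CAV1 and overlapping, and in 3.06% of all windows.

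The last 60 bases before the first CAV1 start site of RefSeq are chr7:116524949-116525008 on the plus strand (GRCh38.p14). They are shown because they hold this pair, in capitals, which begins 18 bases before the start site.
CAV1 promoter: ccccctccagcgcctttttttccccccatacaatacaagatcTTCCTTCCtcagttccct

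The first CAV1 probe begins close by, at base 20 counted from 1 at that start site, and its first 58 bases match chr7:116525028-116525085 (GRCh38.p14), where the RefSeq window ends. The start sites of RefSeq were not matched to the hg19 start of CAV1 given above, which is from the study's rows. Whether the bases shown lie before or within the transcript listed there was not tested. A match of letters is a description and was not tied to binding of any factor.

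The directions were fixed by the choice of rows, and so was a fall of at least 2-fold in the deposited values. As a description, all 9 probes were at least 2-fold lower under every alternative that kept them. The sizes depended on the processing. With normexp, several probes differed less, with -1.82 for NKX2-2, -1.25 for STEAP2, -1.31 for FEZF1 and -1.99 for FCGRT. At least 5-fold lower with normexp were 4 of the 9 probes, where 250 of all 41579 were. In the deposited processed values, the NKX2-2 difference was -5.02.

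**Figure D4:**
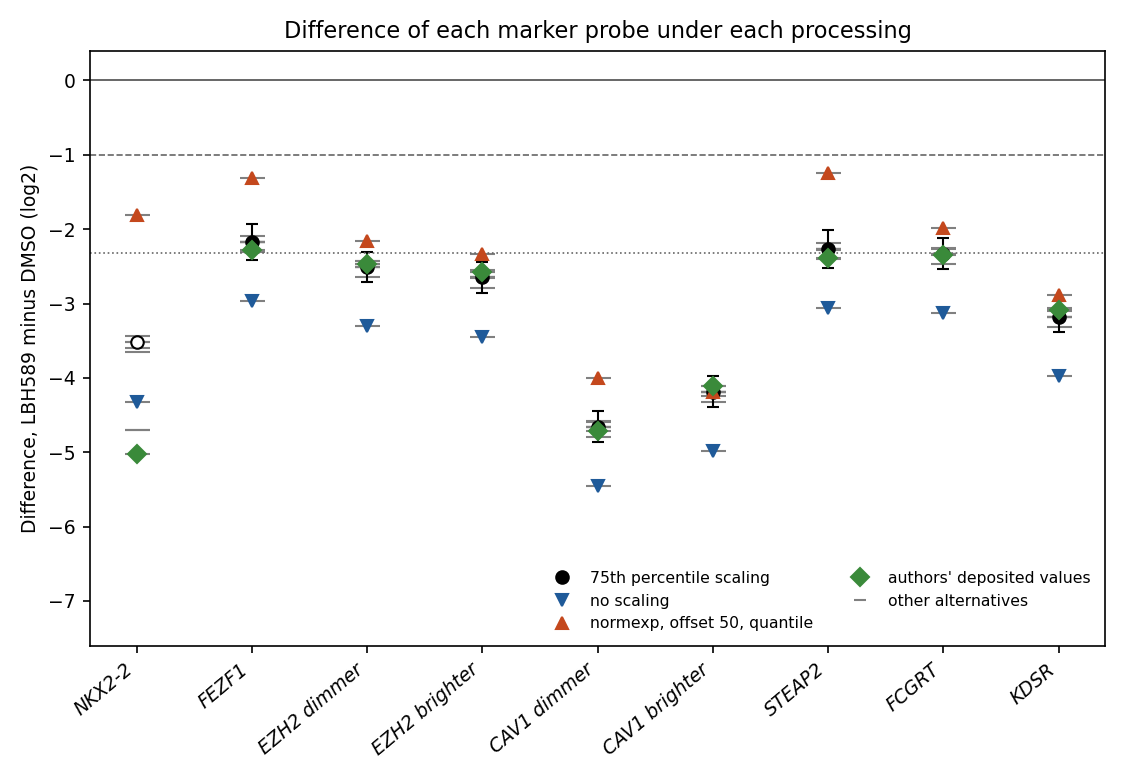
Difference of log2 levels, LBH589 minus DMSO (y axis), of the 9 marker probes under each processing, with the measurement error as bars for the 75th percentile scaling (open circle: a bound). All values lie below the 2-fold line (dashed), from -5.46 to -1.25, and the normexp values (triangles up) of NKX2-2, FEZF1, STEAP2, FCGRT and the dimmer EZH2 probe lie above the 5-fold line (dotted).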

How the data were processed

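RNA of SK-NEP-1 cells was measured on 2 arrays, 1 per condition. Per the file headers, the authors deposited the spot intensity of each array as processed by Agilent Feature Extraction 11.0.1.1 (the submitters' processing notes name 10.7.3.1), background subtracted and not normalized between arrays, with median pixel intensities and flags of 0 or 1, used as a score. The authors also deposited log2 values for 41891 probes, normalized in a way not given in the sources used here.

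Control spots and spots flagged as outliers (54 on DMSO, 70 on LBH589) were left out, which removed 44 probes. The log2 processed signal minus the 75th percentile of the array was taken as the level. Where 1 of the arrays was not well above background, its value was the lowest signal above that limit, or its own signal if higher, which gives a bound. The calculation was tested on simulated data, with changes put only into bright probes well above background. The bounds were not tested in this way. Errors are those of Feature Extraction, and the number of arrays limits the precision.

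Gene names, transcripts and positions (hg19, counted from 1) came from the study's rows of changed mRNAs and lncRNAs, of which 1002, 952, 1406 and 1363 were read. Their columns of fold changes and normalized values were not used, and probes outside these rows are unnamed here. The genes named are the 7 markers, their noncoding partners, all listed probes of genes in the related lists and the nearest probe to each marker. Members and lists were chosen with earlier results of these data known. Python 3.11.15, numpy 2.4.6, pandas 2.3.3, matplotlib 3.10.9, R 4.3.3 and limma 3.58.1 were used. Sequences of promoters are from RefSeq.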

Additional observations from a re-analysis of the deposited data

How the results depend on the processing

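Alternatives were no scaling, quantile normalization, a 75th percentile over probes above background on both arrays, repeated probes set to a median difference of 0, normexp on median signals (mean signals were not used here) (offset 50) before quantile normalization, the deposited values, bounds replaced by measured values, only probes above background on both arrays, a floor of 5, and flagged spots kept. Of 89 differences of single probes under these 10 alternatives, 69 stayed within 1 measurement error, 20 moved by more and 0 changed direction. Part of this count was fixed by the calculation. Replaced bounds, the limit to probes above background on both arrays and the floor could not change marker probes measured on both. The second 75th percentile, the repeated probes and the kept flagged spots moved all marker probes by 1 shared amount each, below the error. All marker probes stayed within 1 error with quantile normalization, all but NKX2-2 in the deposited values, and only the brighter CAV1 probe with normexp. The number of marker probes at least 2-fold lower stayed at 9, or at 8 of 8 where both arrays had to be above background. The number at least 5-fold lower was 7, from 6 to 9 under the others but 4 with normexp. The median difference of the 7 genes was -2.65, and it was -3.45 without scaling and -1.99 with normexp. It was -2.58 when the probes of a gene were averaged, and from -2.79 to -2.49 under the remaining alternatives.

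Over all probes, those at least 2-fold lower numbered 4249, against 16253 without scaling and 2258 with normexp. Those at least 5-fold lower numbered 684, against 1963 and 250, and 1057 of 40515 in the deposited values. No scaling leaves in the difference in brightness between the arrays. The cause was not tested for normexp. The 20 probes printed on 10 spots each, by which the arrays could also be set, had a median difference of 0.14, from -2.64 to 1.60.

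No paired analysis was possible because each condition has 1 array and the labels give no replicate numbers. Leaving out a replicate was likewise not possible. Brightness limits every bound, those of NKX2-2, HOXD10, LOXHD1, TNC and STEAP2-AS1 on the LBH589 array and those of FEZF2, GPC3, NCAM1 and MEOX1 on the DMSO array. Among the 20 probes of other genes in the lists, the 11 measured above background on both arrays kept their direction under every alternative. These probes, too, come only from rows chosen for change.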
